A study of Mus musculus with 6 samples.

Results

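The enzymes that build fatty acids and store them as triglyceride were examined in mouse carotid bodies. This paired organ sits where the carotid artery divides, and its type I (glomus) cells report low blood oxygen to the brain. The group was set as 10 gene symbols: Acly, Acaca, Fasn, Scd1, Acsl1, Acsl5, Gpd1, Gpam, Agpat2 and Dgat2. Every probe set that the platform annotation gives to a single one of these symbols was taken, which gave 21 of the 45101 probe sets and 9 of the 10 genes. No probe set carries the name Acsl1 in the annotation used here, so Acsl1 was not analysed. Of the 21 probe sets, 16 were bright enough to be tested, at least 1 for each of the 9 genes.

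Carotid bodies were pooled from male mice of 2 inbred strains at 28 days of age, with no treatment or engineered allele named in the labels, and each pool was hybridised to 1 Affymetrix array. DBA/2J arrays 1 to 3 were made from 19, 18 and 19 mice (38, 36 and 38 organs), and A/J arrays 1 to 3 from 20, 21 and 19 mice (40, 42 and 38 organs). The comparison asks which genes differ between carotid bodies of a strain with a strong breathing response to hypoxia, DBA/2J, and a strain with a weak one, A/J. Each array is a pool, so every p-value below sets the strain difference against the spread between pools of mice, array noise included. The test partly borrows that spread from probe sets of like brightness. With 3 arrays per strain the precision is limited.

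Cytosolic fatty acid synthesis begins with citrate leaving the mitochondria. ATP citrate lyase cuts it to acetyl-CoA, acetyl-CoA carboxylase makes malonyl-CoA, fatty acid synthase builds palmitate and stearoyl-CoA desaturase adds a double bond. For storage, acyl-CoA synthetases activate the fatty acid, glycerol-3-phosphate dehydrogenase supplies the glycerol backbone, and acyltransferases add the chains until DGAT enzymes make triglyceride. These enzymes are abundant in white and brown adipocytes, and brown fat lies close to the vessels of the neck in young mice. Myelinating Schwann cells and many other cells also make fatty acids.

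The start regions of 4 of the genes are shown. Gpam and Acsl5 were chosen because they lie close together in the genome and were both lower in DBA/2J. Agpat2 was added because it lay just short of the threshold, and Fasn because it overlapped between the strains. The regions shown are RefSeq sequences of assembly GRCm38.p6, from the C57BL/6J strain and not from DBA/2J or A/J. Each covers 250 bases before and 50 after the annotated start. No such window was available for Gpd1, Scd1 or Dgat2, and those of Acly, Acaca and Acsl1 are not shown. Capitals mark CCAAT boxes (CCAAT or ATTGG) and GC boxes (GGGCGG or CCGCCC).
Gpam promoter, chr19:55127189-55127488, minus strand: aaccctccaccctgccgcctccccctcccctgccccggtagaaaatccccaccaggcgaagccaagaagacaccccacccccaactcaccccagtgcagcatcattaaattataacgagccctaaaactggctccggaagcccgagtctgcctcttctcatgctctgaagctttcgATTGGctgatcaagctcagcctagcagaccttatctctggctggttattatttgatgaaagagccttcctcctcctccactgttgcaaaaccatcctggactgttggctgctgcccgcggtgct
Acsl5 promoter, chr19:55253119-55253418, plus strand: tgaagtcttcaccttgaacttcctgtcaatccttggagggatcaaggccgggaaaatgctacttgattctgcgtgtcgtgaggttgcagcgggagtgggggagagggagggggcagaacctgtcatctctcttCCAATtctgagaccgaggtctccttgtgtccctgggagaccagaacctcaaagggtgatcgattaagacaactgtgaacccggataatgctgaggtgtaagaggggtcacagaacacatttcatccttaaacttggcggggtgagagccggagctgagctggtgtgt
Agpat2 promoter, chr2:26604368-26604667, minus strand: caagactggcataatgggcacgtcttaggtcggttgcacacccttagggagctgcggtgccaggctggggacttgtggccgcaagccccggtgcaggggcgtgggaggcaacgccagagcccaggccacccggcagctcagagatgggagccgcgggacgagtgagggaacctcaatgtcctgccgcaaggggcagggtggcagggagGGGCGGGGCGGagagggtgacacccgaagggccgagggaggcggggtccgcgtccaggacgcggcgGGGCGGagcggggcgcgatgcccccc
Fasn promoter, chr11:120824498-120824797, minus strand: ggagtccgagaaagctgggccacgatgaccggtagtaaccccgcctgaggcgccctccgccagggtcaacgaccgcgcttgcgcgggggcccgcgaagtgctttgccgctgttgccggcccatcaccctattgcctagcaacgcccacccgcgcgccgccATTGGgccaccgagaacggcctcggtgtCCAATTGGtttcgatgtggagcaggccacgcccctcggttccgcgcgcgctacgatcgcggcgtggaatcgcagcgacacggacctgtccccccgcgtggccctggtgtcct
Gpam has 2 starts in the table, of which the upstream one is shown, and which of them the probe set reads from was not determined. Its other window, chr19:55099428-55099727, held 0 CCAAT boxes and 1 GC box, the reverse of the window shown. These 4 windows held 1 CCAAT box for Gpam, 1 for Acsl5, 0 for Agpat2 and 3 for Fasn, of which a pair on opposite strands overlap in Fasn. GC boxes numbered 3 in Agpat2, a pair of them overlapping, and 0 in the other windows shown. Over all 32851 windows of the table, 37.4% held a CCAAT box and 35.7% a GC box. Neither the E-box CACGTG, present in 7.2% of all windows, nor TATAAA, present in 13.6%, was found in these 4 windows on either strand. A match is a string of letters and not a measured site, and the arrays measured no binding.

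All 9 genes had lower mean signals in the DBA/2J pools, and 3 of them fell by the test: Gpd1, Gpam and Acsl5. Their products take part in supplying the glycerol backbone, adding the first acyl chain and activating fatty acids. These steps as a whole were not called lower. The related genes Gpd1l, Gpat3, Gpat4, Acsl3, Acsl4 and Acsl6, named after their values were seen, did not pass. Their log2 differences were -0.48, -0.0016, -0.49, -0.29, -0.16 and 0.72. Of the remaining 6 members, Agpat2 and Acaca had log2 differences near -1. These were close to those of Gpam and Acsl5 and smaller than that of Gpd1. Dgat2, Fasn, Acly and Scd1 had smaller ones from -0.52 to -0.14. Each difference is the DBA/2J mean minus the A/J mean of log2(signal + 16), tested with limma over 27022 probe sets with Benjamini-Hochberg adjustment and a threshold of 0.05. The probe set with the highest mean stood for its gene. At that threshold 1.6% of the 13006 genes tested were lower in DBA/2J and 2.17% were higher, 3.77% in all, against 3 of 9 and 0 of 9 here. Of the 16 tested probe sets 3 fell and 0 rose, where 1.41% of all tested probe sets fell, 1.86% rose and 3.27% passed in all. An unadjusted limma p under 0.05 with a lower DBA/2J mean was found for 5 of the 9 genes and for 7.83% of all genes. A negative difference of any size was found for all 9 and for 47% of all genes. The median log2 difference was -0.92 over the 9 genes and 0.03 over all genes. The 3 DBA/2J arrays lay below the 3 A/J arrays for 5 of the 9 genes, a separation seen in 9.69% of all genes (9.54% of probe sets). The members were chosen with earlier results of these data known. The shares of all genes are therefore a background and not a test of the group.

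**Figure D1:**
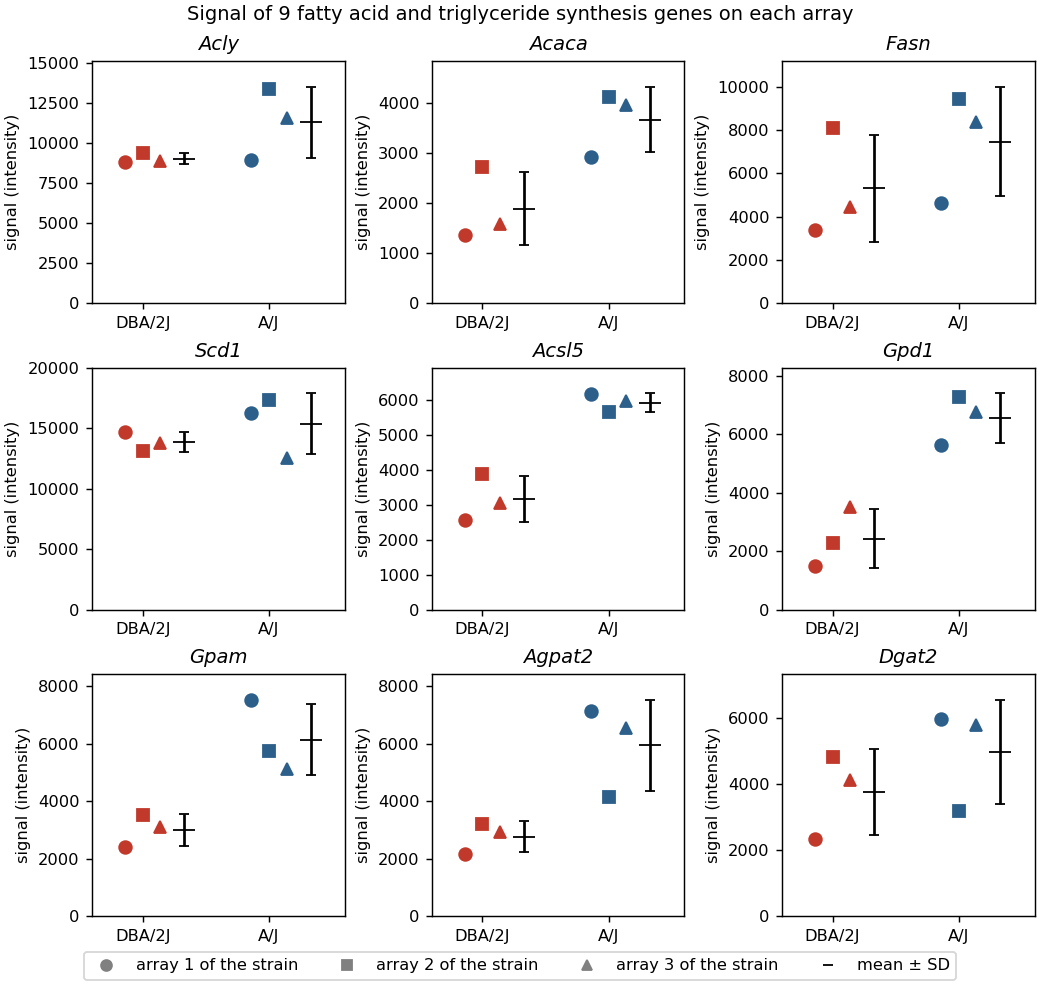
Signal (linear intensity, y axis from 0) of the 9 genes on each array, DBA/2J left in red and A/J right in blue, 1 symbol shape for each array number of a strain, with the mean and SD of 3 arrays in black. The DBA/2J arrays lie wholly below the A/J arrays for Acaca, Acsl5, Gpd1, Gpam and Agpat2, and the strains overlap for Acly, Fasn, Scd1 and Dgat2.

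Acly, which makes cytosolic acetyl-CoA from citrate, had signals of 8840.5, 9398.6 and 8873.2 on DBA/2J arrays 1 to 3, against 8957.4, 13348.8 and 11571.5 on A/J arrays 1 to 3. The DBA/2J values lay close together, and the lowest A/J value fell among them, so the strains overlapped. The log2 difference was -0.30 (SE 0.17, 95% interval -0.69 to 0.08, limma adjusted p = 0.471). Acly had 6 probe sets, of which 4 were tested, and the other 3 tested ones gave -0.22, 0.06 and 0.09. The 2 probe sets left out as too dim read between 0.9 and 21.1 on the 6 arrays.

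Acaca, the acetyl-CoA carboxylase of the cytosol and the committed step of the pathway, had 1370.7, 2728.9 and 1580 in DBA/2J, against 2920.2, 4127.7 and 3959.1 in A/J. All DBA/2J arrays were below all A/J arrays, with DBA/2J array 2 close to A/J array 1. The means were 1893 ± 731 in DBA/2J and 3669 ± 654 in A/J (SD, n = 3 arrays each). The log2 difference of -1.0 (SE 0.27) did not pass, with a limma adjusted p of 0.0975. Without DBA/2J array 2 it was -1.29 and passed (limma adjusted p = 0.0100). Without any other single array it did not pass (limma adjusted p from 0.142 to 0.337). Another Acaca probe set was too dim to be tested, reading 62.8 to 117.7 in DBA/2J and 62.3 to 157.4 in A/J.

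Fasn, which assembles palmitate, varied widely between pools of the same strain. It had 3382.6, 8093 and 4460.7 in DBA/2J, against 4618.7, 9407 and 8357.3 in A/J. The strains overlapped, since DBA/2J array 2 was above A/J array 1. Its log2 difference was -0.52 (SE 0.35, 95% interval -1.32 to 0.27, limma adjusted p = 0.564), an interval that includes both no difference and a fall as large as that of Gpam.

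Scd1, the desaturase that makes oleate and palmitoleate, had the smallest difference of the group. Its brighter probe set read 14726.1, 13115.3 and 13797.9 in DBA/2J, against 16263.9, 17337.4 and 12587.7 in A/J, and the strains overlapped. The log2 difference was -0.14 (SE 0.16, 95% interval -0.49 to 0.22, limma adjusted p = 0.761). After quantile normalization it was 0.03. The dimmer probe set gave -0.42 (limma adjusted p = 0.630), with 2517.4 on DBA/2J array 2 above all 3 A/J arrays.

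Acsl5, an acyl-CoA synthetase that activates long-chain fatty acids, was measured by 1 probe set. It read 2561.2, 3882 and 3052.6 in DBA/2J, against 6159.9, 5638.8 and 5951.4 in A/J. The A/J pools lay within a narrow band, and every DBA/2J pool was below it. The means were 3165 ± 668 in DBA/2J and 5917 ± 262 in A/J (SD, n = 3 each), and the log2 difference was -0.92 (SE 0.19, limma adjusted p = 0.0322).

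Gpd1, the cytosolic glycerol-3-phosphate dehydrogenase that makes the backbone of triglyceride from a glycolytic intermediate, showed the largest fall of the group. Its brightest probe set read 1496.8, 2273.8 and 3499.4 in DBA/2J, against 5634.7, 7287.7 and 6750.5 in A/J. The highest DBA/2J pool was well below the lowest A/J pool. The means were 2423 ± 1010 in DBA/2J and 6558 ± 843 in A/J (SD, n = 3 each), with a log2 difference of -1.51 (SE 0.28, limma adjusted p = 0.0229). The probe sets of Gpd1 disagreed. A second one read 262.7, 424.2 and 506.6 in DBA/2J, against 775.3, 511.3 and 905.1 in A/J, also without overlap but short of the threshold (-0.86, limma adjusted p = 0.192). Of the other two, one gave 0.06 (limma adjusted p = 0.944) and one read between 7.7 and 37.5 and was not tested. With the mean of its tested probe sets in place of the brightest, Gpd1 was at -0.77 and no longer passed (limma adjusted p = 0.0779).

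Gpam, the mitochondrial glycerol-3-phosphate acyltransferase that adds the first chain, read 2388.8, 3504.5 and 3107.8 in DBA/2J, against 7525.9, 5750.2 and 5135.1 in A/J. The strains did not overlap. The means were 3000 ± 566 in DBA/2J and 6137 ± 1241 in A/J (SD, n = 3 each), and the log2 difference was -1.03 (SE 0.21, limma adjusted p = 0.0330). A second Gpam probe set was too dim to be tested, at 76.8 to 140.2 in DBA/2J and 76.2 to 132.7 in A/J.

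Agpat2, which adds the second chain to make phosphatidic acid and whose loss causes lipodystrophy in mice and humans, read 2153.7, 3218.6 and 2934 in DBA/2J, against 7147.4, 4143.5 and 6535.5 in A/J. Here too the strains did not overlap, with A/J array 2 the nearest to the DBA/2J pools. The log2 difference of -1.08 (SE 0.25) just missed the threshold, with a limma adjusted p of 0.0514. It passed without A/J array 2 (-1.32, limma adjusted p = 0.0240) and without DBA/2J array 2 (-1.20, limma adjusted p = 0.0327). It did not pass without A/J arrays 1 or 3 (limma adjusted p = 0.190 and 0.194). Nor did it pass without DBA/2J arrays 1 or 3 (limma adjusted p = 0.213 and 0.103).

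Dgat2, which makes triglyceride from diacylglycerol, read 2325.4, 4836.8 and 4114 in DBA/2J, against 5975.5, 3172 and 5800.1 in A/J. The strains overlapped because A/J array 2 was below 2 of the DBA/2J pools. The log2 difference was -0.41 (SE 0.32, 95% interval -1.14 to 0.31, limma adjusted p = 0.637). A second probe set gave -0.72 (limma adjusted p = 0.354), with A/J array 2 again the lowest A/J pool and below DBA/2J array 2.

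**Figure D2:**
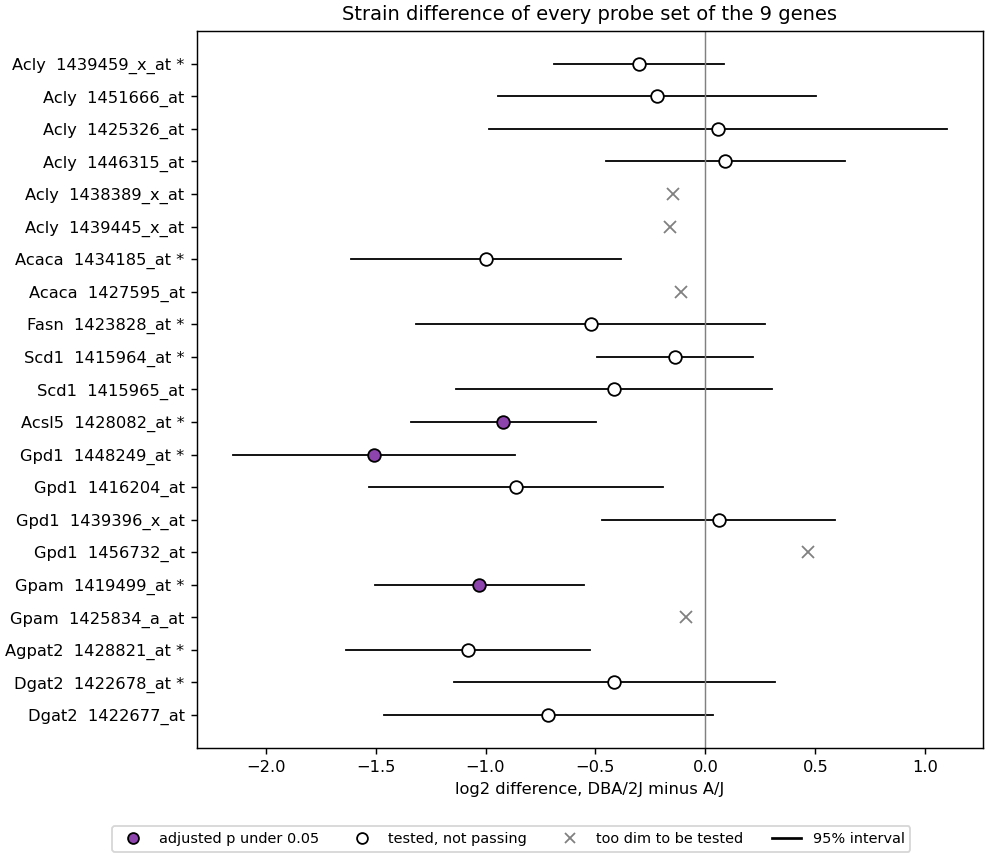
Log2 difference, DBA/2J minus A/J (x axis), of all 21 probe sets (y axis), with the 95% interval from limma for the 16 that were tested. Filled circles passed an adjusted p of 0.05, open circles did not, crosses were too dim to be tested, and an asterisk marks the probe set that stands for its gene. The 3 filled circles are Acsl5, Gpd1 and Gpam, and the remaining tested probe sets of Gpd1 and Acly spread on both sides of 0.

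The 3 calls held without DBA/2J array 2, and each was lost without some other single arrays. Gpd1 kept its direction but not the threshold without DBA/2J array 1 (limma adjusted p = 0.0685) or A/J arrays 1, 2 or 3 (0.0698, 0.0828 and 0.10). Gpam was at 0.148 without DBA/2J array 1, at 0.0735 without DBA/2J array 3, and at 0.130, 0.0816 and 0.0695 without A/J arrays 1, 2 and 3. Acsl5 was at 0.144 and 0.0802 without those DBA/2J arrays and at 0.126, 0.0779 and 0.131 without the A/J arrays, in the same order. Without DBA/2J array 2, 5 members fell: Gpam, Gpd1, Acsl5, Acaca and Agpat2. By the rule the series states, 1.5-fold (here on the log2(signal + 16) scale) in at least 6 of 9 array pairs with a p under 0.05, and with the unadjusted limma p standing in for the study's test, those same 5 members were lower in DBA/2J, a rule met by 4.66% of all genes.

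The members were not ordered alike within a strain. On the A/J arrays, Acly, Acaca, Fasn and Scd1 were all highest on array 2, while Acsl5, Gpam, Agpat2 and Dgat2 were all highest on array 1. The mean log2 value of the 4 fatty acid synthesis genes was 12.71, 13.25 and 13.03 on A/J arrays 1 to 3. That of the 4 activation and esterification genes was 12.71, 12.15 and 12.51. Gpd1 went with the synthesis genes in this respect, being highest on A/J array 2. Over all genes, A/J array 1 was the highest of its strain in 33.5% and A/J array 2 in 35.5%.

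Such orders were not limited to these enzymes. Of 20 other genes of fatty acid synthesis, elongation and desaturation, 10 were highest on A/J array 2 and 11 lowest on A/J array 1. Of 19 other triglyceride and glycerol phosphate genes, 10 were highest on A/J array 1 and 13 lowest on A/J array 2. Of 19 fatty acid oxidation genes, 16 were highest on A/J array 1 and 16 lowest on A/J array 2. Of 16 lipid droplet and lipolysis genes, 11 were highest on A/J array 1 and 10 lowest on A/J array 2. Of 17 cholesterol genes, 14 were highest on A/J array 3. Among all genes, 35.9% were lowest on A/J array 1, 36.2% were lowest on A/J array 2 and 30.9% were highest on A/J array 3. On the DBA/2J arrays, 8 of the 9 members were lowest on array 1 and 7 were highest on array 2, where 30.7% and 45.2% of all genes were. The ratio of the 3' to the 5' Gapdh control, a measure of RNA or label length, was 2.5, 3.28 and 1.73 on the DBA/2J arrays, against 1.74, 4.87 and 1.81 on the A/J arrays, so arrays 2 of both strains had the highest ratios. Its part in the order of the pools was not tested.

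**Figure D3:**
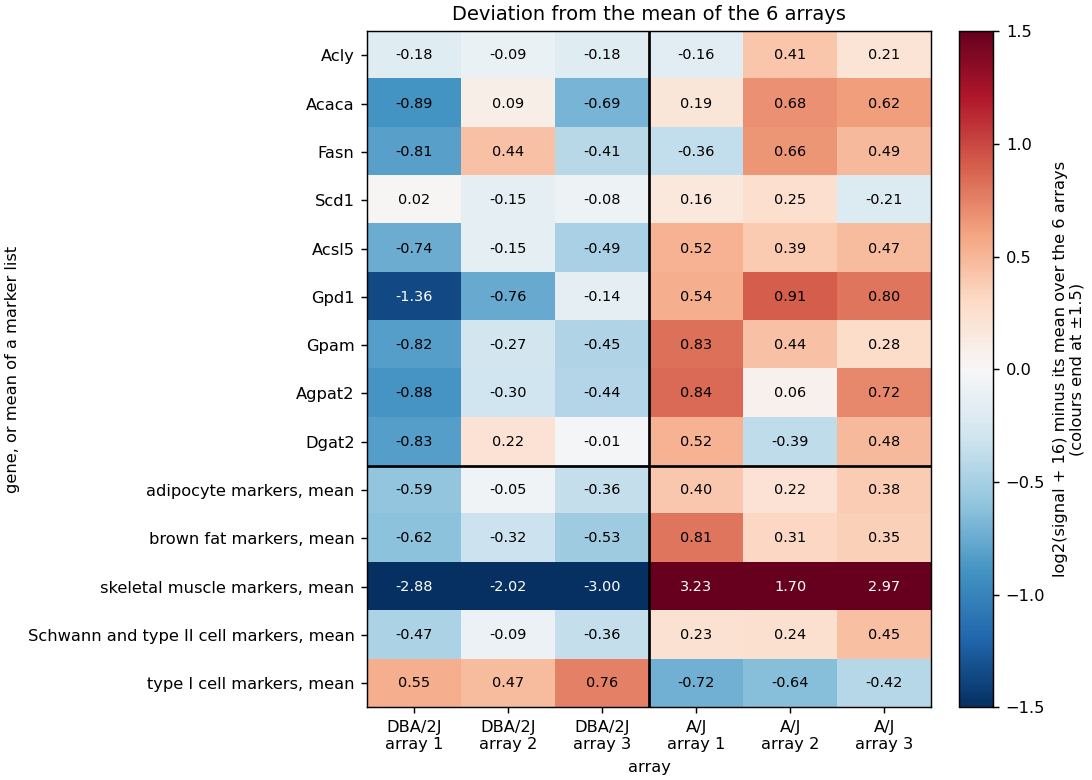
Deviation of log2(signal + 16) from its mean over the 6 arrays (colour and printed value) for the 9 genes and for the mean of 5 marker lists (y axis), on 3 DBA/2J arrays left and 3 A/J arrays right (x axis). Fasn, Dgat2 and Acaca are above 0 on DBA/2J array 2 (0.44, 0.22 and 0.09) and Scd1 on DBA/2J array 1 (0.02), while the adipocyte mean is below 0 on the 3 DBA/2J arrays and above 0 on the 3 A/J arrays.

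Adipocyte markers were lower in the DBA/2J pools along with these enzymes. Of 13 adipocyte markers, 10 were named on the array and 9 were bright enough to be tested, and all 9 were lower on average, at a median log2 difference of -0.65. Fabp4, a fatty acid carrier of fat cells, fell, and 8 did not pass. The summed signal of the 10 ran from 18176 to 27843 in DBA/2J, against 33091 to 38115 in A/J. Lep was too dim to be tested. Acvr1c, named after its values were seen, read 152.3, 190 and 213.4 in DBA/2J, against 352.2, 319.9 and 365.8 in A/J. The medians of those DBA/2J arrays were 175, 183 and 163.6, and whether Acvr1c was above background there is unknown. Adipoq, the fat cell hormone, read 4644.7, 9967.4 and 3985.5 in DBA/2J, against 11796.6, 6038.5 and 9416.9 in A/J. Cidec, a lipid droplet protein, read 651.3, 1874.6 and 978.4 in DBA/2J, against 3207.4, 1060.5 and 2496.8 in A/J. For both, the strains overlapped because A/J array 2 lay below DBA/2J array 2. The markers were not ordered alike among the A/J pools: of the 9 tested, 4 were lowest on A/J array 2 and 3 were highest on it, Fabp4 among the highest. These counts are near the shares of all genes, 36.2% lowest and 35.5% highest on that array.

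Brown fat markers moved the same way. Of 12, 10 were tested, all 10 were negative (median -1.14), and 3 fell: Ucp1, Dio2 and Otop1, the last pair named after their values were seen. Ucp1, the uncoupling protein, read 5652.9, 10302 and 7603.1 in DBA/2J, against 24394, 14703.4 and 18985.3 in A/J. The summed signal of the 12 ran from 13401 to 24585 in DBA/2J, against 30645 to 50722 in A/J. All 6 pools thus held transcripts of fat cell markers. Fewer fat cells and less RNA per fat cell cannot be told apart in pooled tissue.

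When the arrays were aligned on the mean of the 9 tested adipocyte markers, an alternative chosen after the data were seen that adds 0.74 to every log2 difference, 0 members passed with limma and 2 had an unadjusted p under 0.05. Gpd1 was then at -0.77 (SE 0.32, limma adjusted p = 0.0662), Agpat2 at -0.34, Gpam at -0.29, Acaca at -0.26 and Acsl5 at -0.18. Scd1, Acly, Dgat2 and Fasn turned to 0.60, 0.43, 0.32 and 0.21, and none of the 4 passed. The shift moves all genes alike, and the share of all genes that passed after it is not given. These counts and adjusted p-values therefore cannot be set beside those of the main fit. Relative to these markers the members lay on both sides of 0. That split follows from the main fit, where their differences ran from -1.51 to -0.14, and from the shift of 0.74.

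Markers of some other tissues also differed between the pools. All 15 skeletal muscle markers fell. Some of their DBA/2J signals were near or below the pseudocount of 16, which then sets the size of the log2 difference, so levels are given instead. The summed signals were 1860 to 3277 in DBA/2J, against 53086 to 128590 in A/J. Of the 15, 14 were highest on A/J array 1 and 15 lowest on A/J array 2. Acsl5, Agpat2 and Dgat2 had that order among the A/J pools too, while Gpam was highest on A/J array 1 and lowest on A/J array 3, and Gpd1 and the 4 synthesis genes were highest on A/J array 2. Ckm, the muscle creatine kinase, read 115.7, 172.2 and 89 in DBA/2J, against 15327.5, 6403.8 and 13979.4 in A/J. Of 6 Schwann and type II cell markers tested, each was lower on average (median -0.57). The count that passed limma was 0, and 5 had an unadjusted p under 0.05. Their sums ran from 25241 to 27168 in DBA/2J and from 34049 to 38071 in A/J. Of 15 type I cell markers tested, 8 rose and 0 fell, with a median of 0.88, among them Chga, the vesicle protein chromogranin A (2.37), while Th, the first enzyme of catecholamine synthesis, was at 0.88 and did not pass (limma adjusted p = 0.131). Of 4 macrophage markers tested, each was lower on average (median -0.49) and 0 passed. Of 5 endothelial markers tested, 3 were lower and 2 higher on average (median -0.12), and 0 passed. The part of fat, muscle, glia, type I cells, macrophages or endothelium in the members' values was not tested.

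Other genes of the same pathways were in part lower in DBA/2J, and no member of the 7 related lists rose. Of the 20 other fatty acid synthesis, elongation and desaturation genes, 14 had negative differences, 1 fell, 0 rose and 19 did not pass. Acacb, the carboxylase at the mitochondrial surface that restrains fatty acid oxidation, read 357.3, 305.5 and 355.2 in DBA/2J, against 747.1, 852.5 and 675.2 in A/J. The strains did not overlap, and the log2 difference was -1.12 (limma adjusted p = 0.0149). A dim Acacb probe set, not tested, ran the other way, at 69.9 to 87.1 in DBA/2J and 10.9 to 20.3 in A/J. Thrsp, a lipogenic protein of fat and liver, had -0.76 (limma adjusted p = 0.108) without overlap. The elongase Elovl6 had -0.85 (limma adjusted p = 0.278), with a dimmer probe set that passed at -1.38 (limma adjusted p = 0.0446).

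Of the 19 other triglyceride and glycerol phosphate genes, 2 fell and 17 did not pass, and the median was -0.48. Mogat1, which acylates monoacylglycerol, read 88.8, 129.9 and 106 in DBA/2J, against 413.3, 299.9 and 402.7 in A/J, with a log2 difference of -1.64 (limma adjusted p = 0.00643). The DBA/2J signals lay below the array medians of 163.6 to 183, and whether they are above background is unknown, so the size of the difference depends on the pseudocount. Gpd2, the mitochondrial partner of Gpd1 in the glycerol phosphate shuttle, read 1133.1, 2141.6 and 1568.7 in DBA/2J, against 4340.7, 2836.5 and 3965 in A/J (-1.22, limma adjusted p = 0.0413). Of its other 3 probe sets, 1 also passed at -1.09, 1 gave -1.09 without passing (limma adjusted p = 0.0910) and 1 gave -0.03. Dgat1, the other enzyme of the last step, was at -0.63 (limma adjusted p = 0.195). Lpin1, which dephosphorylates phosphatidic acid, was at -0.30 (limma adjusted p = 0.697), while a dimmer probe set of it passed at -1.17 (limma adjusted p = 0.020).

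In the lists of uptake, storage and breakdown, the genes that fell bind fatty acids, coat lipid droplets or oxidise fatty acids. Of 15 uptake and activation genes, Fabp4 fell by 0.77 on the log2 scale and 14 did not pass, and the median was -0.29. Of 16 lipid droplet and lipolysis genes, 2 fell, 0 rose and 14 did not pass. Plin2, which coats lipid droplets in most cells, read 5018.2, 7182 and 5381.3 in DBA/2J, against 12060.4, 11119.6 and 11025.2 in A/J (-0.97, limma adjusted p = 0.0167). Plin5, the droplet coat of oxidative tissues, was at -1.85 (limma adjusted p = 0.0159). Of 19 fatty acid oxidation genes, 18 were negative with a median of -0.71, and 2 fell: Acaa2, the mitochondrial thiolase (-1.07), and Acadvl, the very long chain dehydrogenase (-0.77). Of 17 cholesterol synthesis and uptake genes the count that passed limma was 0, 1 had an unadjusted p under 0.05, and the median was -0.23.

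**Figure D4:**
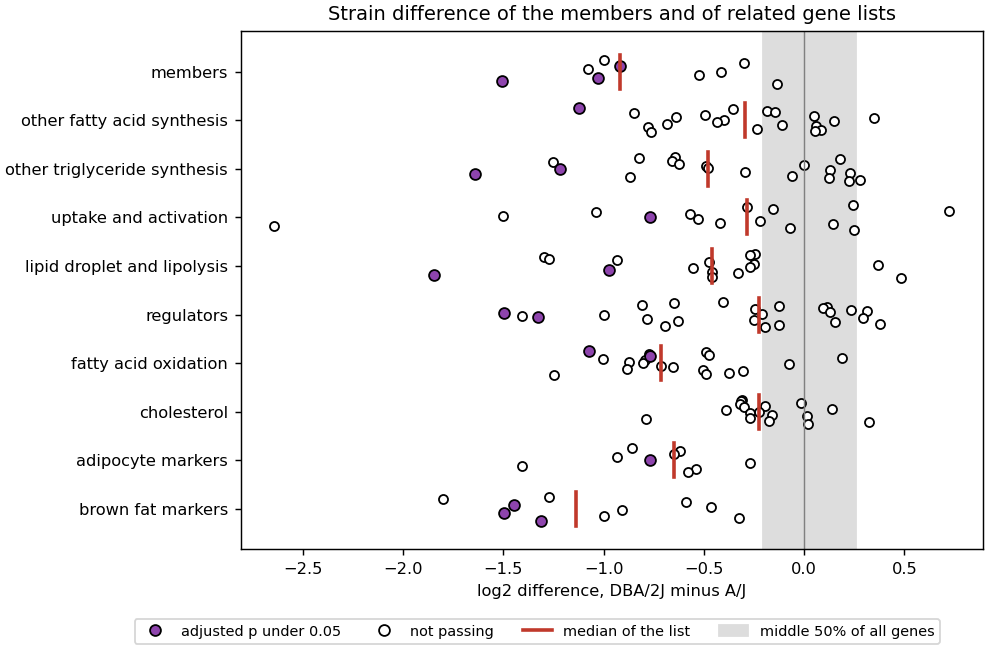
Log2 difference, DBA/2J minus A/J (x axis), of the 9 members, of 7 related gene lists and of adipocyte and brown fat markers (y axis), 1 point per tested gene. Filled points passed an adjusted p of 0.05, red bars are list medians, and the grey band is the middle 50% of all 13006 genes, from -0.21 to 0.26. The median of the members, -0.92, lies left of the band, as do those of all the other lists drawn.

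Among 24 regulators of lipogenesis, 2 fell and 22 did not pass, and the median was -0.23. Mlxipl (ChREBP), the carbohydrate-sensing factor that drives lipogenic genes, read 304.4, 584.5 and 373.4 in DBA/2J, against 1008, 1089.2 and 1477.8 in A/J, with no overlap and a log2 difference of -1.5 (limma adjusted p = 0.0185). Ppargc1b, a coactivator of mitochondrial and lipogenic genes, was at -1.33 (limma adjusted p = 0.0426). Pparg, the master factor of fat cells, was lower without overlap but did not pass (-1.41, limma adjusted p = 0.108). Srebf1, whose product SREBP-1 drives the genes of fatty acid synthesis, leaned the other way. It read 1806.7, 2762.2 and 1810.6 in DBA/2J, against 1141.7, 1720.1 and 2087.5 in A/J, with overlap and a log2 difference of 0.38 (limma adjusted p = 0.592).

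The genes whose profile over the 6 arrays was most like that of a member that fell were found by the root mean square difference of centred log2 values. For Acsl5 they were Plin2 (0.06), Pex5l (0.07) and Uspl1 (0.09). For Gpam they were Tmem267 (0.06), Cobll1 (0.10) and Sephs2 (0.11). For Gpd1 they were Frmd3, Epb41l4b and Zfp991, with larger differences of 0.22, 0.22 and 0.24, so no gene matched Gpd1 as closely. The likeness covers 6 arrays of 2 strains, and so includes the strain difference itself.

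Gpam and Acsl5 lie close together on chromosome 19, where Scd1 also lies, with the protein-coding genes Tectb and Gucy2g between them. Both of those were named on the array and too dim to be tested. On the Acsl5 side, Zdhhc6, Vti1a and Tcf7l2 had log2 differences of -0.02, -0.15 and 0.44, and on the Gpam side Shoc2 and Bbip1 had -0.15 and 0.36. None of these 5 neighbours passed, and the strains overlapped for each. Adra2a, which lies between Gpam and Shoc2, was not named on the array. Acly, Acaca and Fasn lie on chromosome 11, Gpd1 on 15, Agpat2 on 2 and Dgat2 on 7.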

How the data were processed

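Total RNA was measured on Affymetrix arrays, and the deposited values are linear intensity signals from 0.1 to 27051.1. The authors' values had a 2% trimmed mean of 500.0 on every array, so they were scaled before deposit. What software did so is not stated in the labels, and no detection calls were used. Array medians ran from 163.6 to 183, and log2 values correlated at 0.904 to 0.959 within a strain and 0.878 to 0.924 between strains.

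Gene names came from the platform annotation held by GEO, with symbols updated by gene identifier through RefSeq (GRCm38.p6, used for names and gene order). Of the 45037 probe sets other than controls, 34945 have a single gene there, 932 have several and 9160 have no entry. The 64 control probe sets were left out, and the upper 60% by mean log2(signal + 16) were kept. Strains were compared in R 4.3.3 with limma 3.58.1 (lmFit, eBayes with trend, two-sided, no covariate). p was adjusted by Benjamini-Hochberg over all 27022 kept probe sets, which makes gene counts lower than an adjustment over genes. The procedure was also run on simulated data with independent noise and no differences in array quality, which does not test the calls made on these arrays. Promoters were searched with Python 3.11.15 and figures drawn with matplotlib 3.10.9.

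The members and lists were chosen with earlier results of these data known, as were the tests. Named are all members, up to 4 called genes of each pathway list with the smallest adjusted p, a fixed set of regulators and markers, and the 3 genes most like each called member. Exceptions are marked.

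The alternatives comprised equal array medians, quantile normalization, no trend, pseudocounts of 64 and 1, the upper 40%, no filter, array weights, the mean of a gene's probe sets, leaving out each array, and blocks by a number shared in some titles. Added after seeing the data were alignment on adipocyte markers and adjustment over genes alone.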

Additional observations from a re-analysis of the deposited data

How the results depend on the processing

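The count of 3 members that fell was 3 to 4 under both normalizations, both pseudocounts and the upper 40% of probe sets. So it was under the mean of a gene's probe sets, the random block and adjustment over genes alone. Where 4 passed, the added gene was Agpat2. With the mean of a gene's probe sets, Agpat2 passed and Gpd1 did not. The count was 1 (Gpd1) with no filter on dim probe sets and 1 (Gpd1) without an intensity trend, for genes and for probe sets alike. With array weights it was 5 genes and 7 probe sets, and 3007 probe sets passed over the whole array, against 883. Leaving out single arrays gave 0 to 5 member genes, 0 to 5 member probe sets and 341 to 1351 probe sets over the array. The members with an unadjusted limma p under 0.05 were then 5 to 7. Fewer arrays also give less power. Aligned on the adipocyte markers, 0 member genes passed (2 at an unadjusted p under 0.05), and Scd1, Acly, Dgat2 and Fasn turned to 0.60, 0.43, 0.32 and 0.21. The share of all genes that passed after that shift is not given. Scd1 was also at 0.033 after quantile normalization. The cause of that turn was not tested. Gpam, Gpd1 and Acsl5 were negative under all 19 alternatives run and passed under 10, 12 and 10 of them. Agpat2 was also negative under all 19 and passed under 8.

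A number is shared in the titles of array 2 and of array 3 of both strains. With it as a fixed replicate block, 0 members, 0 member probe sets and 0 of 27022 probe sets passed with limma, while 4 members and 1955 probe sets had an unadjusted p under 0.05, and Dgat2 turned to 0.056. That fit leaves few degrees of freedom. The remaining array of each strain shares no number, so the strain difference in that fit rests on arrays 2 and 3 alone. Each log2 difference there, that of Dgat2 included, is the mean of the strain differences within arrays 2 and within arrays 3. Deviations from the strain means correlated at -0.26 for the pair of arrays 2 and at 0.04 for the pair of arrays 3. The labels do not say what the number means, it may mark a day or batch, and these correlations do not tell whether the paired arrays shared one. With it as a random block 3 members and 848 probe sets passed. The share of total signal in the members was 0.149% in DBA/2J and 0.216% in A/J, and 0.154% and 0.211% after quantile normalization. Whether the 5 untested probe sets were above background is unknown, as no detection call was used.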
